A study of Mus musculus with 3 samples.

Results

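The immediate early and dissociation stress genes were described across 3 single-cell libraries of mouse small intestinal organoids. The 10 members, of 23271 gene symbols in the table, are Fos, Fosb, Jun, Junb, Jund, Egr1, Atf3, Ier2, Zfp36 and Dusp1, and they were taken by name as genes known to be induced within minutes of a stimulus. All 10 had at least 20 UMIs (unique molecular identifiers, each counted as 1 captured transcript) in every pair of libraries, so none was lost to the filter on low counts. Their levels, the share of cells with a UMI and their co-occurrence were measured in cells of at least 1000 and under 8000 UMIs, with at least 400 genes.

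All organoids came from proximal small intestinal crypts of adult C57BL/6 mice, with 1 donor behind the sequenced cultures, and had first been expanded as stem cell enriched cultures in ENR+CV with the ROCK inhibitor Y-27632 in the first days. ENR stands for the growth factors EGF, Noggin and R-spondin 1, which all libraries share. ENR+CD adds CHIR99021, an inhibitor of the kinase GSK3, and DAPT, an inhibitor of the Notch processing enzyme gamma-secretase. ENR+CV adds CHIR99021 and valproic acid, an inhibitor of histone deacetylases. The organoids were dissociated enzymatically into single cells and loaded on 1 Seq-Well array per medium, a plate of microwells in which each cell is caught with a barcoded mRNA capture bead. The kept cells number 2545 in ENR (5095089 UMIs, median 1553 per cell), 2383 in ENR+CD (4538388 UMIs, median 1543) and 985 in ENR+CV (2942252 UMIs, median 2499). With 1 library per medium there is no replicate, no test was run between media, the medium cannot be told apart from the array and its handling, and every interval is a 95% interval that covers counting error only. Fewer cells of a type and less RNA per cell cannot be told apart in values summed over a library.

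The labels of 2 libraries conflict. The merged table names cells by library and not by medium, and these names were tied to the media through the sample titles and source names. A set of 1092 cells carries the name of the stem cell enriched library, labelled ENR+CV. It is found, however, in the single table deposited under the label ENR+CD. The 2506 cells named as the Paneth enriched library, labelled ENR+CD, are found under the label ENR+CV. The names of the merged table were followed throughout, and under these names the kept cells of every library come within a single cell of the number given in the study's methods. Alpha-defensin (Defa) genes, which mark Paneth cells, took 2.93% of the UMIs for ENR, 10.6% for the library so named ENR+CD and 0.365% for ENR+CV. Mitochondrial genes took 16.5%, 8.67% and 3.89% of the UMIs in the same order, and 1 cell barcode was shared by a merged ENR and a merged ENR+CD cell. Epcam, a marker of epithelium, stood at 1211, 1190 and 1690 CPM (counts per 1000000 UMIs of the library), while Ptprc, a marker of immune cells, had 1, 1 and 2 UMIs and Cd3e had none. Vim, an intermediate filament gene of stroma and of some cultured epithelium, stood at 34.7, 66.3 and 247 CPM, and Col1a1 had no UMI in ENR or ENR+CD. Of 7 immune markers 3, 4 and 5 had a UMI (52.4, 244 and 11.9 CPM summed), and of 8 markers of stroma and endothelium 6, 5 and 8 did (54.4, 78.7 and 258 CPM). In ENR+CD, Cd74 stood at 10.4 CPM, Ptprc had 1 UMI, and Cd3e, Tyrobp and H2-Aa had none. Most of the 244 CPM there thus came from other genes of the immune list, which also names Cd68, Cd79a and Lyz2. The study counts Lyz2 among the signature genes of Paneth cells. How the 244 CPM divide among these genes is not given here. Whether those genes mark immune cells in this library was not tested. The part of immune and stromal cells in the members' levels was not tested either.

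Immediate early genes are transcribed at once from promoters that are already accessible, without new protein being made, after growth factors, calcium, stress or enzymatic dissociation of a tissue. Most encode transcription factors, and their mRNAs are short lived. Some products close the response again, Zfp36 by marking mRNAs for decay and Dusp1 by removing phosphate from MAP kinases. In single-cell data of solid tissue they are known as a signature of dissociation, but the same genes serve growth factor signalling in living epithelium.

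The upstream sequence was examined for the response elements through which such genes are known to be read. RefSeq promoters (GRCm38.p6, 250 bases before the start) matched 8 of the 10 members, and Egr1 and Ier2 were not among them. Those of Atf3, Junb and Zfp36 are shown because these genes were called higher in a library below, and that of Fos as the gene after which the family is named. The RefSeq starts of Atf3, Zfp36 and Dusp1 lie inside the longer spans given for these genes below, and that of Jund lies upstream of its span. Each sequence runs 5′ to 3′ toward the gene's start on the minus strand, except Fos on the plus strand, and capitals mark every motif found: TGACGT, the core of the cyclic AMP response element, TGANTCA, the AP-1 site, GCGGGGGCG, the Egr site, TATAAA, the TATA box (searched on the gene's strand only), and the serum response element (both strands for the others).

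Atf3 (chr1:191183334-191183583): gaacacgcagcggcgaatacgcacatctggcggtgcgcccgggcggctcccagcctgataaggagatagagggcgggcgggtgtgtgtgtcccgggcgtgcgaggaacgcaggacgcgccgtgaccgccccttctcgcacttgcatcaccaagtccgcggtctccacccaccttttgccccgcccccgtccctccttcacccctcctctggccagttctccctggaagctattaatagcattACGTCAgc
Junb (chr8:84978749-84978998): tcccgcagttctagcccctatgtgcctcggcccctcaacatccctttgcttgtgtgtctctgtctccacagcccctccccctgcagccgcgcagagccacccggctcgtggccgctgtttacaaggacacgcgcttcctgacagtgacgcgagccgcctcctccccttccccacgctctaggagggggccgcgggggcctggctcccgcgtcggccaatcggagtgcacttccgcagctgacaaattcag
Zfp36 (chr7:28379229-28379478): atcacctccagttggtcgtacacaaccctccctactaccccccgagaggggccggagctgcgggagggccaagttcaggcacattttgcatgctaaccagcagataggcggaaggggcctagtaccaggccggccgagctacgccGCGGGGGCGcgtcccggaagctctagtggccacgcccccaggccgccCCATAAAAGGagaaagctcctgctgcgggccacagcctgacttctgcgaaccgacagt
Fos (chr12:85473640-85473889): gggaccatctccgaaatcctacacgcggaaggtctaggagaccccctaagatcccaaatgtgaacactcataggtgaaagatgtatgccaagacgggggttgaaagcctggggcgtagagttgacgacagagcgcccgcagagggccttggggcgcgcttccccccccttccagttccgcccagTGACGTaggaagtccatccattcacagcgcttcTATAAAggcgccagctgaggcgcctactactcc

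The cyclic AMP core was found in 3 of the 8 promoters, namely Fos, where it begins 66 bases before the start, Atf3, at 8 bases, and Dusp1, which holds it at 191 bases and, as an overlapping pair on both strands, at 143 bases. Of 32851 promoters of the same length, 6.47% hold it. The Egr site was found in Fosb and Zfp36 (2.57% of all promoters), the serum response element in Zfp36 (1.47%), the TATA box in Fos (7.59%) and the AP-1 site in none of the 8 (6.75%). Jun, Junb and Jund had no match in this window. For Jund the window ends at base 70697738, while the span of the gene begins at 70698949, so the bases just before that span were not searched. Bases farther upstream than the window were not searched for any gene. A missing match, such as that of the serum response element in Fos, thus does not show that a gene lacks the element. A match describes letters and is not a measured binding site.

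Summed over the 10 genes, the level was 2036 CPM (1997 to 2076) for ENR, 2969 CPM (2919 to 3019) for ENR+CD and 4524 CPM (4448 to 4602) for ENR+CV. The share of cells with at least 1 member UMI followed the same order. With every cell thinned at random to 1000 UMIs, so that deeper cells do not count as more often positive, it was 82.5% (80.9 to 83.9), 90.9% (89.6 to 92.0) and 95.2% (93.7 to 96.5) in that order. Without thinning the shares were 92.1%, 96.3% and 98.9%. The members were therefore detected in most cells of every library, and no cell type that should lack them was at hand as a background. Barcodes under 1000 UMIs, which hold debris and free RNA besides shallow cells, carried close levels, namely 1852, 2890 and 4347 CPM. How much free RNA adds to the shares was not tested.

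**Figure D1:**
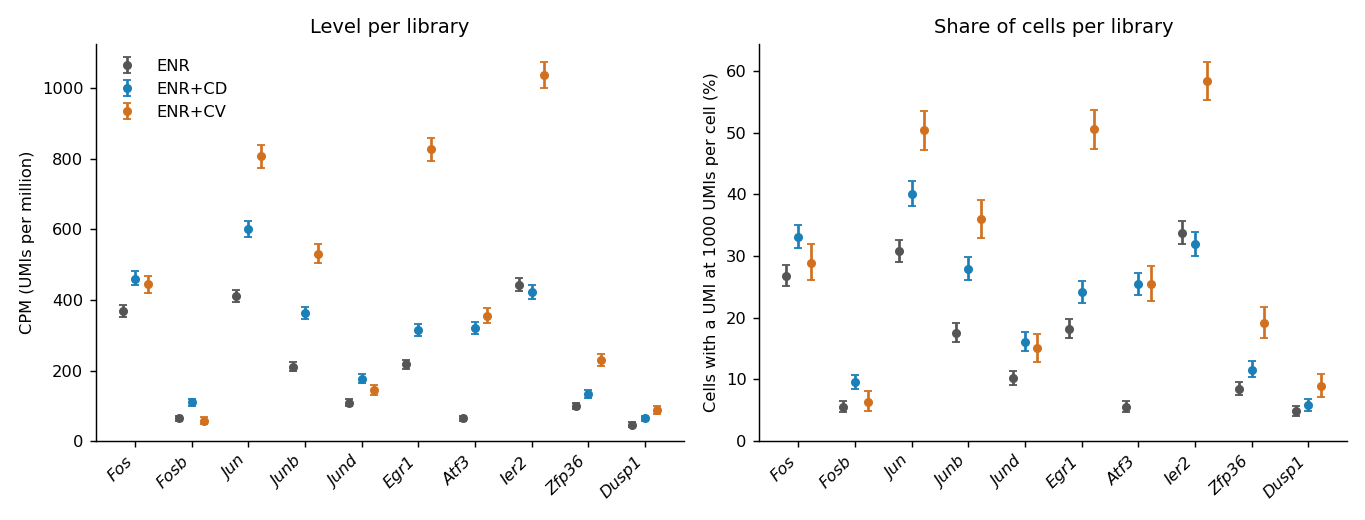
The left panel plots the level of each member in CPM with exact Poisson 95% intervals, and the right panel the percent of cells with a UMI at 1000 UMIs per cell with Clopper-Pearson 95% intervals, in ENR (grey), ENR+CD (blue) and ENR+CV (orange), 1 library each. Atf3 stands at 65.4 CPM in ENR against 319.7 in ENR+CD and 356 in ENR+CV, while Egr1 and Ier2 stand highest in ENR+CV, at 827 and 1037 CPM.

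Atf3 differed most between ENR and the other libraries. The gene (chromosome 1, 191170296 to 191218039, minus strand, GRCm38) encodes a stress-induced factor of the ATF family that pairs with Jun proteins. Its level was 65.4 CPM (58.5 to 72.8) for ENR, 319.7 CPM (303 to 337) for ENR+CD and 356 CPM (335 to 378) for ENR+CV, so both libraries with CHIR99021 lay far above ENR and close to each other. The ratio was 4.89 for ENR+CD over ENR (4.34 to 5.53), 5.44 for ENR+CV over ENR (4.81 to 6.18) and 0.898 for ENR+CD over ENR+CV (0.829 to 0.974). More cells had the transcript, too. At 1000 UMIs per cell, 5.54% of ENR cells had an Atf3 UMI (4.683 to 6.501), against 25.4% of ENR+CD cells (23.7 to 27.2) and 25.5% of ENR+CV cells (22.8 to 28.3).

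Egr1 and Ier2 followed another pattern, with ENR+CV well above both other libraries. Egr1, a zinc finger factor read out downstream of ERK signalling, stood at 217 CPM (205 to 231) for ENR, 315 CPM (299 to 331) for ENR+CD and 827 CPM (794 to 860.4) for ENR+CV. Its ratio was 3.80 for ENR+CV over ENR (3.54 to 4.09) and 0.381 for ENR+CD over ENR+CV (0.356 to 0.406). ENR+CD also exceeded ENR for Egr1, by a smaller ratio of 1.45 (1.34 to 1.57). Ier2 (chromosome 8, 84661331 to 84662852, minus strand), a short nuclear protein gene of the immediate early class, stood at 443 CPM (425 to 461) for ENR, 422 CPM (403 to 442) for ENR+CD and 1037 CPM (1000 to 1074) for ENR+CV. ENR and ENR+CD could not be separated for Ier2 by counting error in the whole libraries, with a ratio of 0.954 (0.897 to 1.01). That ratio differed between kinds of cells, as given below. ENR+CV exceeded ENR for Ier2 by a ratio of 2.34 (2.22 to 2.47). At 1000 UMIs per cell, 50.6% of ENR+CV cells had an Egr1 UMI and 58.4% an Ier2 UMI, against 18.2% and 33.8% of ENR cells and 24.2% and 31.9% of ENR+CD cells.

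The Jun proteins pair with Fos proteins to form AP-1. Jun (chromosome 4, 95049034 to 95052222, minus strand) stood at 412 CPM (394 to 430) for ENR, 602 CPM (580 to 625) for ENR+CD and 808 CPM (775 to 841) for ENR+CV. Junb (chromosome 8, 84974484 to 84978718, minus strand) kept the same order at 211 CPM (199 to 224), 363 CPM (346 to 381) and 532 CPM (506 to 559). None of these intervals overlap, and the ratio of ENR+CV over ENR was 1.962 for Jun (1.85 to 2.08) and 2.52 for Junb (2.33 to 2.72). For Jun, the order of ENR+CD and ENR+CV depends on the scaling given below. Junb overlaps Prdx2 on the other strand, a gene at 403, 559 and 634 CPM, and how strand was used in counting is not given in the sources used here, so reads of the pair could be shared. Jund (chromosome 8, 70698949 to 70700616, plus strand), the Jun gene known to be expressed more steadily, was highest in ENR+CD, at 177 CPM (165 to 189.8), against 145 CPM (132 to 159.9) for ENR+CV and 109 CPM (100.2 to 119) for ENR.

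The Fos genes varied least or in another direction. Fos (chromosome 12, 85473890 to 85477273, plus strand) stood at 369 CPM (352 to 386) for ENR, 461 CPM (441 to 481) for ENR+CD and 445 CPM (421 to 469) for ENR+CV, and the last 2 could not be separated, with a ratio of 1.04 (0.967 to 1.11). Fosb (chromosome 7, 19302696 to 19310051, minus strand) was the one member with its highest level in ENR+CD and no difference between ENR and ENR+CV beyond counting error. It stood at 64.4 CPM (57.6 to 71.7) for ENR, 109.7 CPM (100.3 to 119.8) for ENR+CD and 58.1 CPM (49.7 to 67.5) for ENR+CV. The ratio was 1.70 for ENR+CD over ENR (1.48 to 1.97) and 1.89 for ENR+CD over ENR+CV (1.58 to 2.26).

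The feedback genes were highest in ENR+CV. For Dusp1, the lead over ENR+CD narrowed without a cluster of cells described below and was lost with the scaling given below. Zfp36 (chromosome 7, 28376784 to 28380253, minus strand), which binds AU-rich elements and marks mRNAs for decay, stood at 98.7 CPM (90.3 to 108) for ENR, 134 CPM (124 to 145) for ENR+CD and 230.1 CPM (213 to 248) for ENR+CV. Dusp1 (chromosome 17, 26505590 to 26562128, minus strand), a phosphatase of MAP kinases, was the least counted member in ENR and ENR+CD, at 47.3 CPM (41.5 to 53.7) for ENR, 64.8 CPM (57.6 to 72.6) for ENR+CD and 87.3 CPM (77.0 to 98.7) for ENR+CV. The ratio of ENR+CV over ENR was 2.33 for Zfp36 (2.07 to 2.62) and 1.85 for Dusp1 (1.54 to 2.21). Dusp1 overlaps other annotated genes, AC122252.4 and AC122252.1 on the same strand and Ergic1 and Gm8225 on the other. Ergic1 stood at 69.1, 78.0 and 125 CPM and Gm8225 at 235, 71.6 and 57.4 CPM for ENR, ENR+CD and ENR+CV. Reads of Dusp1 and these genes could be shared.

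A gene was called where its CPM differed at least 2-fold, the Poisson intervals were separate and the pair held at least 20 UMIs. For ENR+CD over ENR, 1 of 10 members was called higher (Atf3), against 10.8% of all 12197 genes, and 0 were called lower, against 9.35%. The median log2 ratio was 0.54 over the members and -0.01 over all genes, and 9 of 10 ratios were above 1. The share called is thus near the background, while most members shifted by less than 2-fold in the same direction. For ENR+CV over ENR, 5 of 10 members were called higher (Junb, Egr1, Atf3, Ier2 and Zfp36), against 15.9% of 11962 genes, and 0 lower, against 5.80%. The median log2 ratio was 1.097 over the members and 0.35 over all genes. For ENR+CD over ENR+CV, 2 of 10 members were called lower (Egr1 and Ier2), against 18.9% of 12099 genes, and 0 higher, against 7.10%, with medians of -0.43 over the members and -0.36 over all genes.

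Genes outside the list moved with the ENR+CV comparison as well, so the scaling matters there. Scaled by the median ratio of genes with at least 100 UMIs in both libraries (1.31 for ENR+CV over ENR and 0.733 for ENR+CD over ENR+CV, or 0.39 and -0.45 on the log2 scale), only Egr1 (2.90) and Atf3 (4.16) were called of the 5, against 8.05% of all genes called higher and 9.47% lower, and Junb fell to a ratio of 1.92, Ier2 to 1.79 and Zfp36 to 1.78. Under that scaling Fos had a ratio of 0.921 for ENR+CV over ENR, against 1.21 without it. For ENR+CD over ENR+CV, that scaling left Egr1 at 0.519 and Ier2 at 0.555 with neither called (9.12% of all genes were called lower), and Fosb was called higher at 2.57 (12.6% of all genes were). Jun, Atf3 and Dusp1 moved to 1.02, 1.23 and 1.01, against 0.746, 0.898 and 0.742 without that scaling, and were called neither way. The Atf3 call in ENR+CD over ENR did not depend on it, with a ratio of 5.03.

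**Figure D2:**
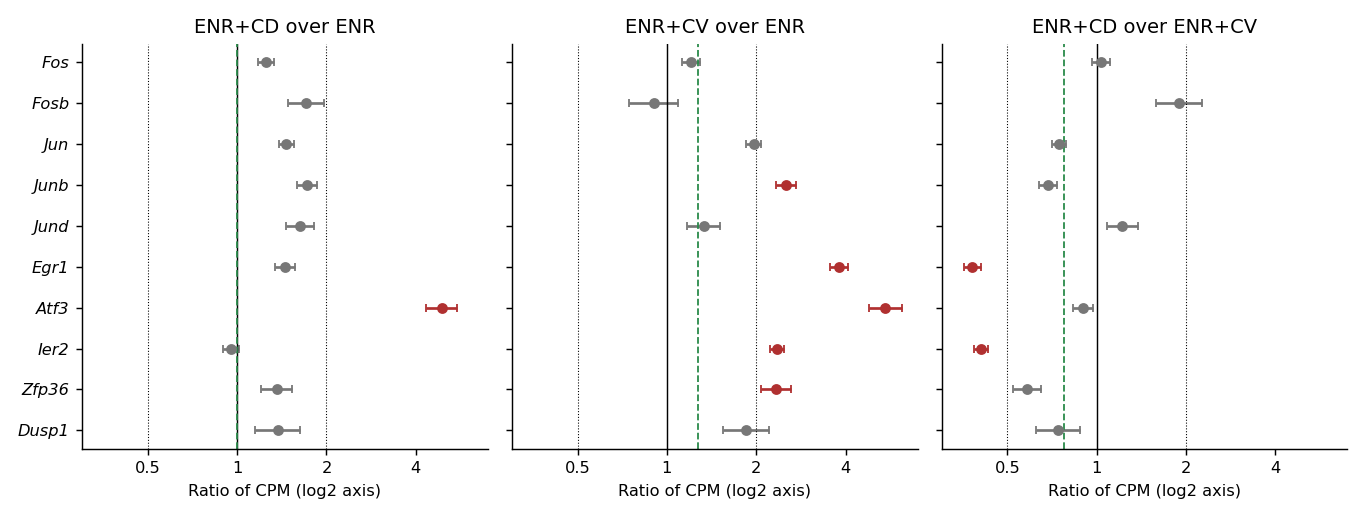
Each point is the ratio of a member's CPM between 2 libraries with its exact binomial 95% interval on a log2 axis, red where called at 2-fold and grey otherwise. Dotted lines mark 2-fold each way and the green dashed line the median over all genes. Atf3 lies beyond 4 in both comparisons with ENR, 5 members are red for ENR+CV over ENR, and in the right panel Egr1 and Ier2 lie below 0.5.

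Cells of 1 kind were then compared between libraries, and some of the differences were called within each kind while others were called in only some. Cells of each library were clustered without the stress genes, and a cluster was named from the markers among its 10 leading genes. In the Paneth-like cells (clusters 2 and 5 of ENR, 3, 6 and 7 of ENR+CD, and 9 of ENR+CV, which holds 30 cells) the summed members stood at 1989, 2663 and 3926 CPM. In the clusters led by cell cycle genes (7 and 10 of ENR, 4 of ENR+CD, 4 and 5 of ENR+CV) they stood at 1810.3, 2454 and 4155 CPM. In the enterocyte-like cells (clusters 4, 10 and 7) they stood at 1915, 2456 and 3200 CPM. In these 3 classes the sums kept the order of the whole libraries.

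Atf3 exceeded ENR in ENR+CD in every class compared. Its ratio was 4.05 in Paneth-like cells (3.18 to 5.21), 4.53 in enterocyte-like cells (2.83 to 7.34), 4.35 in the cell cycle clusters (3.01 to 6.40) and 2.77 in enteroendocrine-like cells (1.93 to 4.08). Ier2 for ENR+CD over ENR was 0.727 in enteroendocrine-like cells (0.610 to 0.867) and 0.786 in the cell cycle clusters (0.658 to 0.938). It was 0.877 in Paneth-like cells (0.769 to 1.001), 0.962 in enterocyte-like cells (0.693 to 1.32) and 1.17 in unnamed clusters (1.06 to 1.29). Egr1 was called higher in ENR+CV over ENR in all 3 named classes they share, with ratios of 4.14, 3.26 and 4.199 in Paneth-like cells, enterocyte-like cells and cell cycle clusters. Of the other 3 members called in ENR+CV over ENR in the whole libraries, none was called in enterocyte-like cells, where the ratio was 1.33 for Junb (0.998 to 1.77), 1.499 for Ier2 (1.18 to 1.90) and 1.60 for Zfp36 (1.07 to 2.40). Zfp36 was not called in Paneth-like cells either, at 1.51 (0.756 to 2.76), with 12 UMIs in those of ENR+CV. Both Zfp36 intervals hold its ratio of 2.33 in the whole libraries, so they do not show that the difference is missing in these classes. Junb, Ier2 and Zfp36 were all called in the cell cycle clusters, at 2.56, 2.12 and 2.42. The ratios within classes were not scaled by the median ratio, with which these 3 were not called in the whole libraries. The share of all genes called within a class was not measured.

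The classes differed between libraries in their Defa UMIs, which lower the CPM of every other gene. In enteroendocrine-like cells these were 0.889% for ENR and 8.04% for ENR+CD. There the ratio of the summed members for ENR+CD over ENR was 1.07 of all UMIs (0.995 to 1.15) and 1.15 outside Defa genes (1.07 to 1.24), so that only the second is separate from 1 by counting error. In Paneth-like cells, with 10.03% and 19.9% Defa UMIs, the same ratio was 1.34 of all UMIs and 1.503 outside Defa genes. The Atf3 and Egr1 calls named above were also made outside Defa genes. Ier2 for ENR+CD over ENR was then 0.784 in enteroendocrine-like cells (0.658 to 0.935) and 0.803 in the cell cycle clusters (0.672 to 0.957). Over the whole libraries it was 1.04.

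Between clusters of 1 library the summed members varied less than 3-fold. In ENR the highest were the enteroendocrine-like cells, the hormone cells of the epithelium, at 2874 CPM (2705 to 3052), while the other clusters lay between 1797 and 2313 CPM. These 181 cells led for 8 of 10 members, with Fosb at 136 CPM and Jun at 591 CPM. Atf3 was highest instead in cluster 11, 73 cells led by Sprr1a and Ly6a, at 180.4 CPM (118 to 264), and Dusp1 in Paneth-like cluster 5, at 77.0 CPM (53.6 to 107). In ENR+CD the highest was cluster 8, 134 unnamed cells led by Notum, Cdh13 and Ifitm1, at 4368 CPM (4164 to 4580) against 2454 to 3260 CPM in the others. Jun stood at 1031 CPM there and Atf3 at 538 CPM. Without this cluster, Ier2 had a ratio of 0.909 for ENR+CD over ENR (0.853 to 0.969), against 0.954 with it. Since the clusters were formed on other genes of the same cells, these levels are a description.

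In ENR+CV, cluster 8 stood apart at 8395 CPM (7795 to 9028), against 3200 CPM in the enterocyte-like cells and 5535 CPM in cluster 1, the next highest. Its 57 cells were led by Gm23924 and other short non-coding RNAs, had a median of 1471 UMIs, and held 18.1% mitochondrial and 4.41% ribosomal protein UMIs, against 3.89% and 12.8% in the library. All 10 members but Ier2 were highest there, with Jun at 1605 CPM, Egr1 at 1420 CPM and Dusp1 at 427 CPM. The part of RNA quality in these levels was not tested. Without this cluster the ENR+CV library stood at 4407 CPM, a ratio of 2.16 over ENR (2.11 to 2.22), and the same 5 members were called, so the comparison between libraries did not rest on it. The share of all genes called without it was not measured.

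**Figure D3:**
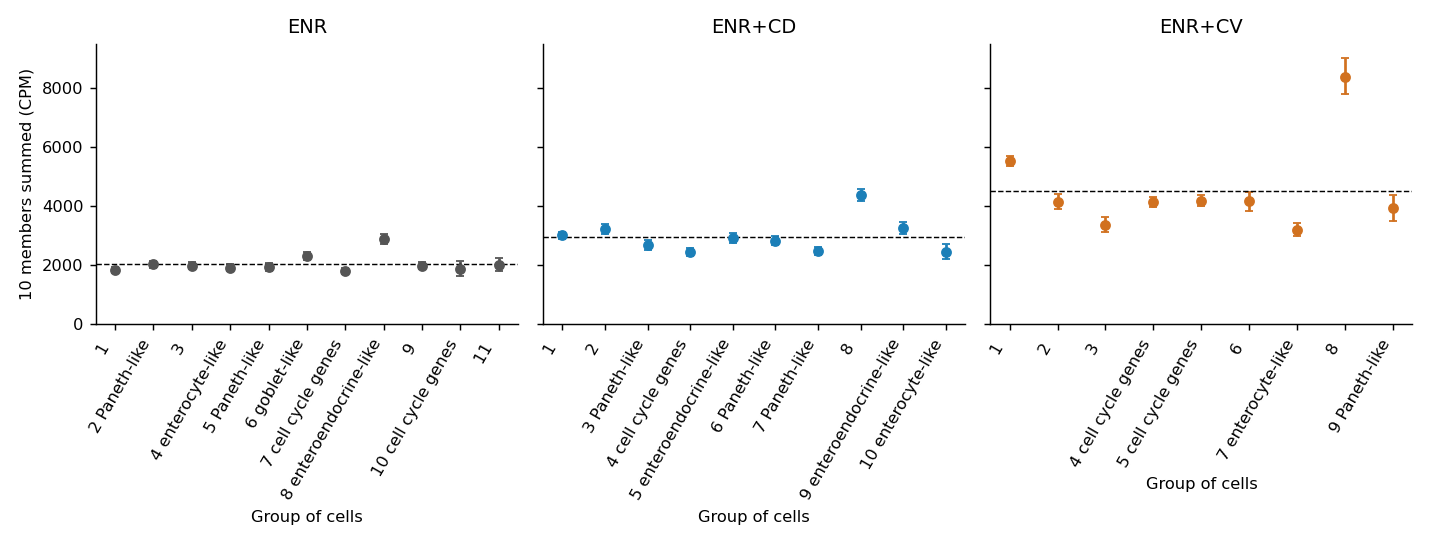
Summed level of the 10 members (CPM) with exact Poisson 95% intervals in each cluster of cells of the 3 libraries, with the level of the whole library as a dashed line. Numbers without a name are unnamed clusters. Cluster 8 of ENR+CV lies at 8395 CPM, cluster 8 of ENR+CD at 4368 CPM and the enteroendocrine-like cluster of ENR at 2874 CPM, each above the other clusters of its library.

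The members co-occurred in single cells only slightly more often than their separate shares give. Over the 45 pairs of members, cells with both were compared with the product of the 2 shares, at 1000 UMIs per cell. The median of observed over product was 1.08, 1.07 and 1.19 for ENR, ENR+CD and ENR+CV, and 36, 38 and 43 of the 45 pairs lay above 1. As an odds ratio the median was 1.14, 1.13 and 1.52 over all cells. Taken within clusters it was 1.12, 1.12 and 1.43, with 36, 38 and 41 pairs above 1. Fos and Jun, the classical AP-1 pair, were found together in 234 ENR cells against 210 from the product, in 329 ENR+CD cells against 317, and in 166 ENR+CV cells against 144. Of ENR+CV cells with a Fos UMI, 58.2% also had a Jun UMI (52.3 to 64.0), against 47.1% of cells without one (43.4 to 50.9). In ENR+CD these shares were 41.6% (38.2 to 45.2) and 39.3% (36.9 to 41.7), and in ENR 34.3% (30.7 to 38.0) and 29.5% (27.5 to 31.7), with overlapping intervals in both.

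The highest pair in ENR+CV was Fosb with Dusp1, found in 12 cells against 5.63 from the product, and Atf3 with Dusp1 was found in 42 cells against 22.4. All 3 of these genes were highest in cluster 8 of ENR+CV, at 208 CPM for Fosb, 751 CPM for Atf3 and 427 CPM for Dusp1. The part of that cluster in these 2 counts was not tested. In ENR the highest was Atf3 with Zfp36, at 18 cells against 11.97, and in ENR+CD Atf3 with Dusp1, at 47 cells against 35.6. At least 5 members were found in 1.69% of ENR cells, 6.25% of ENR+CD cells and 18.1% of ENR+CV cells, against 0.973%, 4.62% and 12.9% if the shares are multiplied. The correlation of a member with the sum of the other 9 over cells (Pearson r) lay between 0.02 and 0.08 for ENR, 0.02 and 0.09 for ENR+CD, and 0.09 and 0.25 for ENR+CV, where Atf3 was highest. These values come from cells that share a library and hold few UMIs per gene. At the thinned depth a cell held a mean of 2.01, 2.93 and 4.54 member UMIs, with a variance of 2.86, 4.59 and 10.8.

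**Figure D4:**
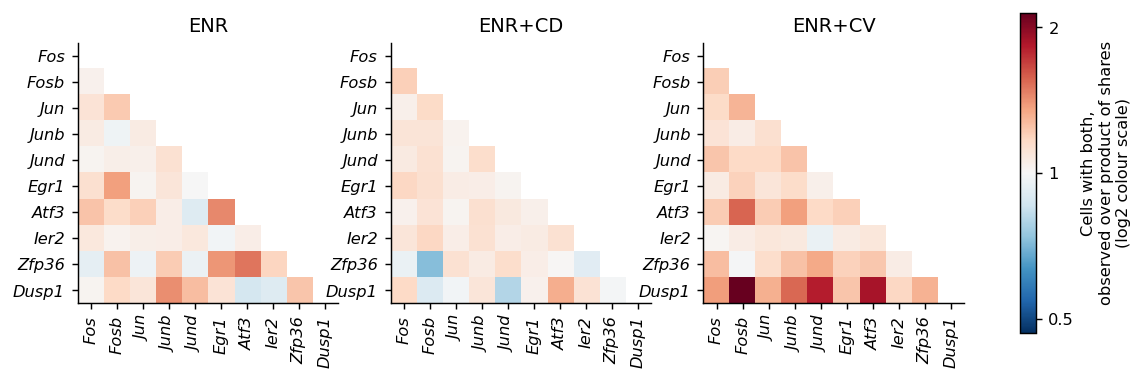
Each square is a pair of members in 1 library, coloured by the number of cells with UMIs of both over the product of their shares on a log2 colour scale (red above 1, blue below), at 1000 UMIs per cell. Most squares are pale in ENR and ENR+CD, and the row of Dusp1 is deepest in ENR+CV, with 2.13 for Fosb with Dusp1 and 1.87 for Atf3 with Dusp1. Values are over all cells of a library and not within clusters.

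The genes whose level over cells (Pearson r of log counts at 1000 UMIs) was most like the summed members differed between libraries, among genes with at least 500 UMIs in the library. In ENR they were Chgb (r = 0.11 over 2545 cells), Tac1, Chga, Cct2 and Spink4, of which Chgb, Tac1 and Chga are enteroendocrine genes. The enteroendocrine markers summed to 3445 CPM in ENR cells with no member UMI at the thinned depth and to 10849.9 CPM in the 100 cells with 6 or more, against 9953 and 15181 CPM for ENR+CD. In ENR+CD they were Btg2 (r = 0.10), Cst3, Clu, H3f3b and Thbs1. In ENR+CV they were H3f3b (r = 0.23 over 985 cells), Cldn4, Gm24146, Hes1 and Hbegf. No gene was among the first 25 in all 3 libraries, and all of these correlations are weak.

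Cells were also divided by the share of their UMIs on Defa genes, with CPM taken outside those genes so that the defensins do not dilute the rest. In ENR the summed members increased with the Defa share, from 1981 CPM in the 1305 cells under 1% to 2154 CPM at 1 to 5%, 2332 CPM at 5 to 15% and 2671 CPM in the 98 cells at 15 to 30%. The ratio of the last to the first was 1.349 (1.22 to 1.49). Over the same bins the mitochondrial share outside Defa genes fell from 17.7% to 12.9%, and with mitochondrial genes also left out of the denominator the ratio was 1.27. Dusp1 changed most, from 39.3 to 132 CPM, a ratio of 3.36 (1.9998 to 5.38), and Fos stood at 354 and 559 CPM, a ratio of 1.58 (1.26 to 1.962). Zfp36 had a ratio of 0.779 (0.398 to 1.38), which counting error does not separate from 1.

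In ENR+CD, the library richest in Defa UMIs, the summed members were flat over the bins, at 3371, 3233, 3289.7, 3429.9 and 3109.6 CPM from under 1% to 30% and above. The ratio of the highest bin, 58 cells, to the lowest, 290 cells, was 0.922 (0.818 to 1.04). Jun alone had an interval below 1, with 757 CPM in the lowest bin and 515 CPM in the highest, a ratio of 0.680 (0.502 to 0.904). This pattern depends on which genes count as defensins. With predicted alpha-defensin genes of other symbols added to the share and left out of the denominator, the ratio was 1.23 in ENR+CD and 1.67 in ENR, and as CPM of all UMIs it was 0.607 and 1.08. In ENR+CV, 959 of 985 cells had under 1% Defa UMIs and no other bin held 20 cells, so no comparison was made.

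**Figure D5:**
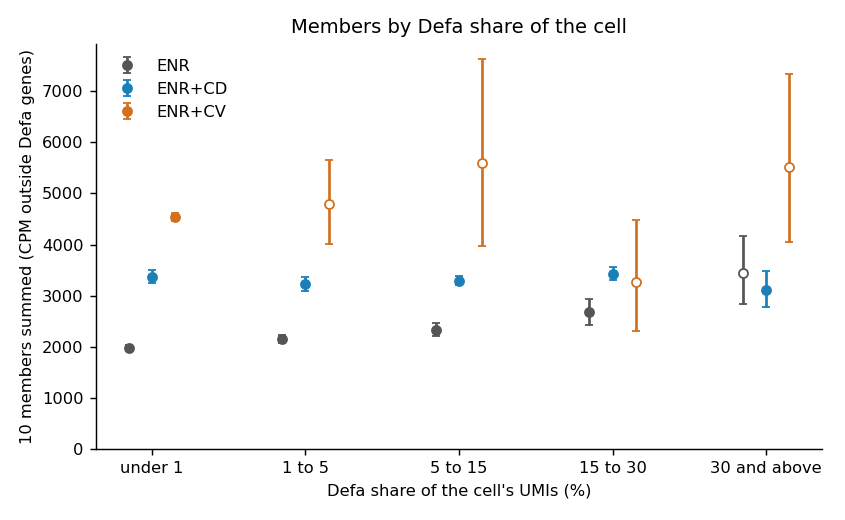
Summed level of the 10 members, in CPM outside Defa genes with exact Poisson 95% intervals, by the percent of a cell's UMIs on Defa genes in the 3 libraries. Open points are bins of fewer than 20 cells. The filled ENR points climb from 1981 to 2671 CPM, while the ENR+CD points stay between 3109.6 and 3429.9 CPM.

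Other genes of the response were described from lists chosen with earlier results of these data known. Of 31 other immediate early and dissociation genes with 20 UMIs in the pair, 14 were called higher (45.2%, against 10.8% of all genes) and 2 lower (6.45%, against 9.35%) for ENR+CD over ENR, with a median log2 ratio of 0.75. For ENR+CV over ENR, 16 were called higher (51.6%, against 15.9%) and 1 lower (3.23%, against 5.80%), with a median of 1.04. Scaled by the median ratio, 7 of these 16 were called higher, against 8.05% of all genes, and 2 of the 31 lower, against 9.47%. The 14 of ENR+CD over ENR were all called with it. For ENR+CD over ENR+CV, 2 were called higher and 3 lower, and 5 and 0 with that scaling. Klf6, a zinc finger factor and the most counted of these, stood at 110.5, 267 and 238 CPM for ENR, ENR+CD and ENR+CV. Btg2, an antiproliferative gene, stood at 83.0, 238 and 176 CPM, and Nfkbia, the inhibitor of NF-kappa-B, at 85.4, 197 and 177 CPM. These 3 were called in both libraries over ENR, but with the median ratio they fell to 1.64, 1.62 and 1.59 for ENR+CV over ENR and were called only in ENR+CD, whereas Atf3 was called in both. Ccnl1 was called in neither, at 169, 242 and 170.3 CPM.

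The remaining lists are to be read against the shares of all genes called, which were 10.8% higher and 9.35% lower for ENR+CD over ENR and 15.9% and 5.80% for ENR+CV over ENR. Of 12 other AP-1 and ATF genes, 4 were called higher (33.3%) and 1 lower for ENR+CD over ENR, and 1 higher (8.33%) and 1 lower for ENR+CV over ENR. Atf5, a relative of Atf4, was the one called lower in both, at 108, 37.9 and 39.8 CPM. Of 16 MAP kinase phosphatases and ERK feedback genes, 2 were called higher (12.5%) and 1 lower for ENR+CD over ENR, among them Dusp6, an ERK phosphatase, at 23.9 CPM in ENR and 69.8 CPM in ENR+CD. For ENR+CV over ENR, 2 were called higher (12.5%) and 2 lower, with Phlda1 at 195 and 499 CPM. Of 11 genes of the Zfp36 family and mRNA decay, 0 were called higher and 1 lower for ENR+CD over ENR, and 2 higher (18.2%) for ENR+CV over ENR, with Zfp36l1 at 104 and 223 CPM. Of 17 upstream kinases and regulators, 2 were called higher (11.8%) for ENR+CD over ENR, and 4 higher (23.5%) and 1 lower for ENR+CV over ENR, with Gsk3b, the kinase that CHIR99021 inhibits, at 74.2 and 178 CPM. With the median ratio, none of the genes called higher for ENR+CV over ENR in the first 3 of these lists was called, Phlda1 (1.95) and Zfp36l1 (1.64) among them. That scaling left 4 of the 16 phosphatase and ERK feedback genes called lower (Dusp2, Spred1, Etv4 and Etv5), against 9.47% of all genes. Of the 4 upstream genes 1 was called, and Gsk3b (1.83) was not.

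Heat shock genes are another set known from dissociated tissue. Of 13 with 20 UMIs, 1 was called higher (7.69%) and 1 lower for ENR+CD over ENR, and 4 higher (30.8%, against 15.9% of all genes) and 0 lower for ENR+CV over ENR, which is the members' direction. Those 4, named after their values were seen, were Hspa1a (21 UMIs in ENR+CV), Hspa1b (ratio 4.04), Dnaja1 (2.99) and Hsph1 (2.17), and all but Hsph1 were called with the median ratio. With that scaling 1 of the 13, Hsp90aa1, was called lower, against 9.47% of all genes. Of 14 compared for ENR+CD over ENR+CV, 3 were called lower (21.4%, against 18.9%) and 0 higher. The most counted of these chaperone genes, Hsp90ab1, stood at 2336, 2052 and 3246 CPM, and Hspa8 at 1118, 943 and 1283 CPM, and neither was called. Among cells, the summed heat shock level was 5563 CPM in ENR cells with no member UMI at 1000 UMIs and 5516 CPM in those with 6 or more. For ENR+CD these levels were 4728 and 4988 CPM, and for ENR+CV 6889 and 6468 CPM.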

How the data were processed

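Seq-Well single-cell RNA was measured in 3 libraries, ENR, ENR+CD and ENR+CV. The authors demultiplexed the reads with bcl2fastq, aligned them to mm10 with Drop-seq settings (STAR and Seurat are named in the submitters' notes, without versions) and deposited raw UMI counts, merged and per library, and raw read counts. The annotation used by the authors and how strand was counted: not given in the sources used here. Merged cells were matched cell by cell to the per-library tables. Cells with at least 1000 and under 8000 UMIs and at least 400 genes were kept. UMIs were summed per library and scaled to CPM, without scaling by gene length, with exact Poisson intervals. Ratios have exact binomial and shares Clopper-Pearson 95% intervals. These cover counting error only. Shares and co-occurrence were taken after thinning to 1000 UMIs (seed 11). Clusters were made per library in Seurat 5.3.0 (R 4.3.3, 12 components, 30 neighbours, resolution 1.35), and doublets were not called. Names needed at least 3 markers among the 10 leading genes. Other steps used Python 3.11.15, NumPy 2.4.6 and SciPy 1.17.1. Gene positions are from GENCODE on GRCm38, and the call rule was tested on simulated data. The genes named are the members, the 4 most counted genes of each list, tissue markers, leading genes of clusters and the 5 genes most like the members in each library. Members and lists were chosen with earlier results of these data known.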

Additional observations from a re-analysis of the deposited data

Results flagged for a closer look

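Cells and barcodes outside the comparisons also held the members. In barcodes under 1000 UMIs the summed level was 1852, 2890 and 4347 CPM for ENR, ENR+CD and ENR+CV. In cells with 8000 or more UMIs it was 1908, 3176 and 4183 CPM, and in cells under 400 genes, of which there were 24, 46 and 6, it was 1291, 1896 and 1065 CPM. These were flagged because they lie in data that the comparisons do not use and exceed what a count of 0 allows.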

How the results depend on the processing

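No paired analysis was possible because each medium has 1 library, and no library could be left out. For ENR+CD over ENR, the summed ratio of 1.46 became 1.498 when scaled by the median ratio, 1.58 without Defa genes in the denominator, 1.33 without mitochondrial genes, 1.59 in read counts and 1.39 without ENR+CD cluster 8. At 1.5-fold, 4 members were called higher, but the share of all genes called at that fold was not measured. For ENR+CV over ENR, the ratio of 2.22 became 1.70, 2.16 and 1.93 under the same 3 scalings, 2.12 in read counts and 2.16 without ENR+CV cluster 8, and the median ratio left 2 members called higher. For ENR+CD over ENR+CV, the ratio of 0.656 became 0.677 with all merged cells, 0.895, 0.731 and 0.691 under the 3 scalings, 0.637 without Jund, 0.751 in read counts and 0.674 without ENR+CV cluster 8. There, 1 member (Fosb) was called higher with the median ratio, without Defa genes or at 1.5-fold, and 0 lower with the median ratio. With the median ratio 12.6% of all genes were called higher and 9.12% lower, and for the other 2 settings that share was not measured. Without thinning, cells with a member UMI came to 92.1%, 96.3% and 98.9%, and the odds ratio of Fos with Jun rose from 1.24 to 1.61 in ENR, from 1.102 to 1.52 in ENR+CD and from 1.56 to 3.18 in ENR+CV. By Defa share, the ratio of 1.349 in ENR became 1.67 with predicted defensins, 1.08 as CPM of all UMIs and 1.19 in 4 equal groups of cells, and that of 0.922 in ENR+CD became 1.23 and 0.607 under the first 2. Of 210 single-member ratios under alternatives, 145 stayed within their interval, 65 moved and 6 crossed 1, none of them called. The alternatives that leave out a cluster or mitochondrial genes by Defa share, rescale the companion lists or take classes of cells outside Defa genes were chosen after seeing the data. Other causes were not tested, and ENR+CV gave no Defa comparison.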
